A study of Mus musculus with 2 samples.

Results

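Among the GFP- cells of the E14.5 mouse retina, 249 cells held *Pou4f2* transcripts but at most 1 transcript of *Sncg*, *Nefl* and *Rbpms*, genes of differentiated ganglion cells, and these are called *Pou4f2* precursors here. They were selected on raw counts of unique molecular identifiers (UMIs, which count each captured transcript once): at least 1 UMI of *Pou4f2*, at most 1 UMI of *Sncg*, *Nefl* and *Rbpms* together, no UMI of *Tfap2b* or *Olig2*, and under 25% of UMIs from mitochondrial genes (a fraction of 0.25), with no upper limit on genes per cell. They made up 249 of the 4444 GFP- cells within the mitochondrial limit, or 5.60% (95% exact Clopper-Pearson interval 4.95 to 6.32%), and of 8173 cells deposited in all. The cells came from *Tg(Lhx4::EGFP)KN199Gsat/Mmucd* mice, in which a bacterial artificial chromosome with *Lhx4* sequence drives GFP, a reporter chosen to mark developing cones. Retinas of GFP-positive E14.5 embryos from 2 litters were pooled into 1 suspension and sorted, and each sort gate gave 1 droplet library (10x Chromium 3′ v2), so every cell compared below carried the transgene and lay outside the GFP gate. Deposited cells numbered 4445 for the GFP- gate (46778924 UMIs) and 3728 for the GFP+ gate (16010591 UMIs). With 1 library per gate and pooled embryos there were no replicates, so no test was made, all intervals cover counting error only, and all differences are descriptions of this library.

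Retinal ganglion cells are the projection neurons of the retina and the first neurons that it makes. A progenitor on its way to this fate turns on the proneural factor *Atoh7*, leaves the cell cycle, and then expresses the POU factor *Pou4f2* and the LIM-homeodomain factor *Isl1*, which together drive the genes of axon growth and ganglion cell identity. The homeodomain factors *Dlx1* and *Dlx2* act in the same lineage and also in other early neurons, and *Gal* encodes the neuropeptide galanin.

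The precursors held 2524048 UMIs, with a median of 9718 UMIs per cell (range 2595 to 22841) and 2953 genes. They were set against 4195 other GFP- cells (median 9952 UMIs) and against 3 groups taken from counts in the same way. Cells with *Atoh7* but no *Pou4f2* UMI and the same limits on the other genes numbered 521 (median 7961 UMIs) and are called Atoh7 cells. Cells with *Pou4f2*, at least 2 UMIs of *Sncg*, *Nefl* and *Rbpms*, and no UMI of *Tfap2b* or *Olig2* numbered 550 (median 13874 UMIs). They are called differentiated ganglion cells. Cells with a UMI of the Notch target *Hes1*, at least 2 UMIs of *Sfrp2* and no *Atoh7* numbered 1962 (median 10195 UMIs) and served as progenitors, a type that should lack *Pou4f2*. Levels are UMIs summed over the cells of a group per 1000000 UMIs of that group (CPM), with 95% exact Poisson intervals. Cell barcodes shared by both libraries numbered 20, 1 of them a precursor, and 7 precursors (2.81%) were called doublets by Scrublet, against 1.73% of the library.

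Each clause of the rule removed a different number of cells. Of 834 GFP- cells with a *Pou4f2* UMI, 570 exceeded the limit on *Sncg*, *Nefl* and *Rbpms*, which left 264. The limit on *Tfap2b*, a factor of amacrine and horizontal cells, removed 12 more, and the limit on *Olig2*, a factor of neurogenic progenitors, removed 3. A further 2554 cells met all clauses but had no *Pou4f2* UMI. Within the precursors the median was 3 *Pou4f2* UMIs per cell and the highest was 14, with 86 cells (34.5%) at 1 UMI, 69 at 2 to 3 and 94 at 4 or more.

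Transcripts free in the cell suspension can add a stray UMI to any droplet. Among the progenitors, 58 of 1962 (2.96%, 2.25 to 3.80%) held a *Pou4f2* UMI, at a median depth of 10195 UMIs per cell, against 9718 in the precursors. Of the precursors, 32 (12.9%, 8.96 to 17.7%) also met the progenitor definition. They accounted for 30 of the 86 cells with 1 *Pou4f2* UMI, 1 of the 69 with 2 to 3 and 1 of the 94 with 4 or more. In these 32 cells *Isl1* was at 19.0 CPM, *Gal* at 2.71 CPM, and *Sp8* at 0, while the progenitor cyclin *Ccnd1* was at 2075 CPM. The progenitor definition did not use these genes, whereas it fixed *Atoh7* at 0. The values of *Isl1*, *Gal*, *Sp8* and *Ccnd1* in these cells went against the name of ganglion cell precursor, and values without them are given wherever they move a count by more than 1.5 times. The part of free RNA in these cells was not tested.

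The marker genes of the population, *Gal*, *Atoh7*, *Dlx1* and *Dlx2*, were not used by the rule but were chosen with earlier results of these data known. They were all higher in the precursors than in the other cells, which is a description and not a separate test. The 300 bases around the RefSeq start site (250 before, 50 after, build GRCm38.p6) are shown for *Pou4f2*, which chose the cells, and for a marker of each kind, so that a reader can see what lies at the start of these genes. They are *Pou4f2* (chr8:78436598-78436897, minus strand), *Gal* (chr19:3414495-3414794, minus strand), *Atoh7* (chr10:63099535-63099834, plus strand) and *Dlx2* (chr2:71546705-71547004, minus strand). Capitals mark each CANNTG, the E-box letters that proneural factors such as *Atoh7* can bind, which read as CANNTG on both strands.
Pou4f2: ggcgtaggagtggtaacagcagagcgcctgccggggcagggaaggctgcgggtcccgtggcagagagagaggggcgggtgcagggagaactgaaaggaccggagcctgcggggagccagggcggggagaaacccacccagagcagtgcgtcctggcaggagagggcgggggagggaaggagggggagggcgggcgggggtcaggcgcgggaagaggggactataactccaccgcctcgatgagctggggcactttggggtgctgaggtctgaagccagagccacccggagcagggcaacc
Gal: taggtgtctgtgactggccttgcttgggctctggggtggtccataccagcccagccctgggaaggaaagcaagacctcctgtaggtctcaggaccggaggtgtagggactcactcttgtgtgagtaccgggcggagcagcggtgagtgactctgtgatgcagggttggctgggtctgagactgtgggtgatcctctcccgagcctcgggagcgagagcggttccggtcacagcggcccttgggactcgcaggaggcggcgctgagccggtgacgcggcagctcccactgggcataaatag
Atoh7: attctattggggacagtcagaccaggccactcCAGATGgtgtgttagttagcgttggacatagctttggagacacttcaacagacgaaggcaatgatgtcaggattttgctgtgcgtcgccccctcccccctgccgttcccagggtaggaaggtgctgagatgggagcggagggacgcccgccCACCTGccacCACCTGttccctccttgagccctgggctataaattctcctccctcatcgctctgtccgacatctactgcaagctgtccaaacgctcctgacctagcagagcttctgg
Dlx2: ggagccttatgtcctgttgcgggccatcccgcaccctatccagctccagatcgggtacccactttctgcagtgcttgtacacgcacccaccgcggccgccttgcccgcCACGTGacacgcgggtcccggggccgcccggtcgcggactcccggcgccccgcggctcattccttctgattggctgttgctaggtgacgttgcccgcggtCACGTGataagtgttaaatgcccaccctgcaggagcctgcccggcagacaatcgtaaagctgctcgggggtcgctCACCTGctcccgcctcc
The *Atoh7* and *Dlx2* windows each held 3 such matches, the *Pou4f2* and *Gal* windows held 0, and the window of *Dlx1*, not shown, also held 0. Of 32851 promoters of 27025 genes of the same length, 72.3% held at least 1 match and 17.6% held at least 3. A match is a run of letters and not a site, and nothing was drawn from its absence in a window of this size.

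*Gal* was unevenly spread over the precursors. A precursor held between 0 and 187 *Gal* UMIs, with a median of 1, and 129 of 249 cells (51.8%) held any. The 10 cells with the most *Gal* UMIs held 37.4% of all *Gal* UMIs of the precursors. The summed level was 1185 CPM (1143 to 1228) in precursors, 242 in the other cells, 719 in Atoh7 cells and 484 in differentiated ganglion cells. That is 4.90-fold (4.71 to 5.11) above the other cells, 1.65-fold above the Atoh7 cells and 2.45-fold above the differentiated ganglion cells. The share of cells with a *Gal* UMI ranked differently, at 68.9% in the differentiated ganglion cells and 26.3% in the Atoh7 cells. Thinned to 3200 UMIs per cell, the shares were 40.9% (34.7 to 47.3%) in precursors, 45.6% (41.4 to 49.9%) in differentiated ganglion cells and 21.4% in Atoh7 cells. At equal depth the first 2 of these overlap, so the higher summed level in precursors came with more UMIs per *Gal*-holding cell. In progenitors, 9.79% of cells held a *Gal* UMI, at 19.7 CPM. Their *Gal* UMIs were uneven too: 11 of 1962 cells held 10 or more, with a highest value of 34. The part of free RNA in this level was not tested.

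**Figure D1:**
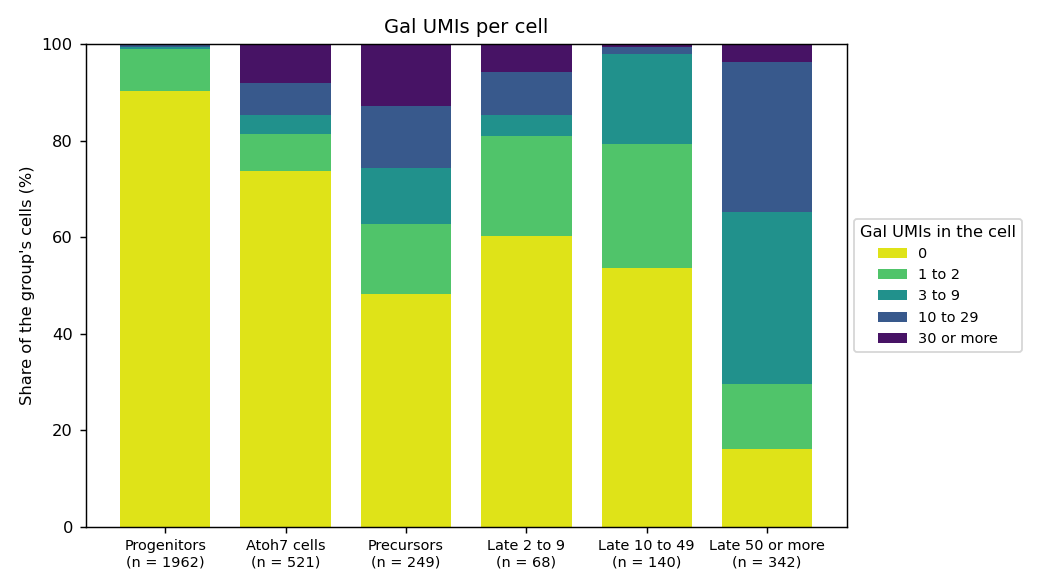
Share of cells (vertical axis, %) by the number of Gal UMIs in the cell (colours), for progenitors, Atoh7 cells, precursors and 3 ranges of differentiated ganglion cells set by their Sncg, Nefl and Rbpms UMIs (late 2 to 9, 10 to 49, 50 or more). Cells with 30 or more Gal UMIs made up 12.9% of precursors and 0.714% of cells with 10 to 49 late UMIs, while cells with no Gal UMI were fewest, at 16.1%, in the last group.

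*Atoh7* was at 260 CPM (240 to 281) in precursors, with 0 to 16 UMIs per cell and a median of 2. It was 2.75-fold higher than in the other cells and 4.82-fold (4.25 to 5.45) higher than in the differentiated ganglion cells. The latter log2 ratio, 2.27, ranged from 1.41 to 2.49 over the alternatives described below. The Atoh7 cells, chosen on this gene, were at 428 CPM, a level that their selection raised, since each had to hold at least 1 *Atoh7* UMI while 67 precursors held none.

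The *Dlx* genes were higher in the precursors than in the differentiated ganglion cells as a whole. Differentiated ganglion cells differed by their UMIs of *Sncg*, *Nefl* and *Rbpms*. *Dlx1* was held by 50% of those with 2 such UMIs and 52.4% with 3 to 9. The share was 40.7% with 10 to 49 and 21.1% with 50 or more. *Dlx1* was at 178 CPM (162 to 195) in 67.5% of precursors and at 32.4 CPM in 29.8% of differentiated ganglion cells, a 5.49-fold difference (4.70 to 6.43). *Dlx2* was at 224 CPM (206 to 244), 8.65-fold (7.36 to 10.2) higher than the 25.9 CPM of the differentiated ganglion cells, and a precursor held 0 to 15 *Dlx2* UMIs with a median of 1. Against Atoh7 cells both genes differed by less than 2-fold, 1.74-fold for *Dlx1* and 1.37-fold for *Dlx2*, although without the progenitor profile *Dlx1* passed 2-fold, at a log2 ratio of 1.02. Progenitors held a *Dlx1* UMI in 2.34% and a *Dlx2* UMI in 1.94% of cells. *Dlx1as*, a transcript antisense to *Dlx1*, had 2.77 CPM, and *Dlx5* and *Dlx6*, which act with *Dlx1* and *Dlx2* in the forebrain, had 0 UMIs, which allows up to 1.19 CPM. *Eya2*, a transcription cofactor and phosphatase of the same list, was at 122 CPM and 3.69-fold (3.25 to 4.18) above the other cells. Of 12 listed *Dlx* and partner factors, 5 had enough UMIs to compare, and 4 of them were at least 2-fold higher than in the other cells, where 1.37% of all genes compared were. Their median log2 ratio was 2.58, against 0.00 for all genes. The 4 were *Dlx1*, *Dlx2*, *Sp8* and *Eya2*, and the median was the value of *Dlx1* itself. *Dlx1* and *Dlx2* are markers chosen with earlier results of these data known. The count and median are therefore descriptions and not a separate test.

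*Sp8*, a zinc finger factor related to the Sp1 family, had the highest ratio to the other cells among the 15 genes named for that comparison. It was at 76.5 CPM (66.1 to 88.0) in precursors, with 0 to 7 UMIs per cell, and 101 precursors (40.6%) held it. The other cells were at 3.68 CPM, a 20.8-fold difference (16.8 to 25.7). The Atoh7 cells were at 8.82 CPM and the differentiated ganglion cells at 9.65 CPM, so the precursors were 8.67-fold (6.16 to 12.5) above the former and 7.92-fold (6.05 to 10.5) above the latter. The log2 ratio to the differentiated ganglion cells, 2.98, was 2.02 with at most 3500 genes per cell and 2.14 when the limit was set at no late UMI. Of the progenitors 0.306% held an *Sp8* UMI. Among the listed and named genes above 10 CPM in precursors, *Sp8* and *Gad2* were more than 3-fold above the Atoh7 cells and more than 2-fold above the differentiated ganglion cells. *Gad2* fell under 2-fold against the differentiated ganglion cells in the alternatives described below, from a log2 ratio of 1.26 to a lowest value of 0.86.

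**Figure D2:**
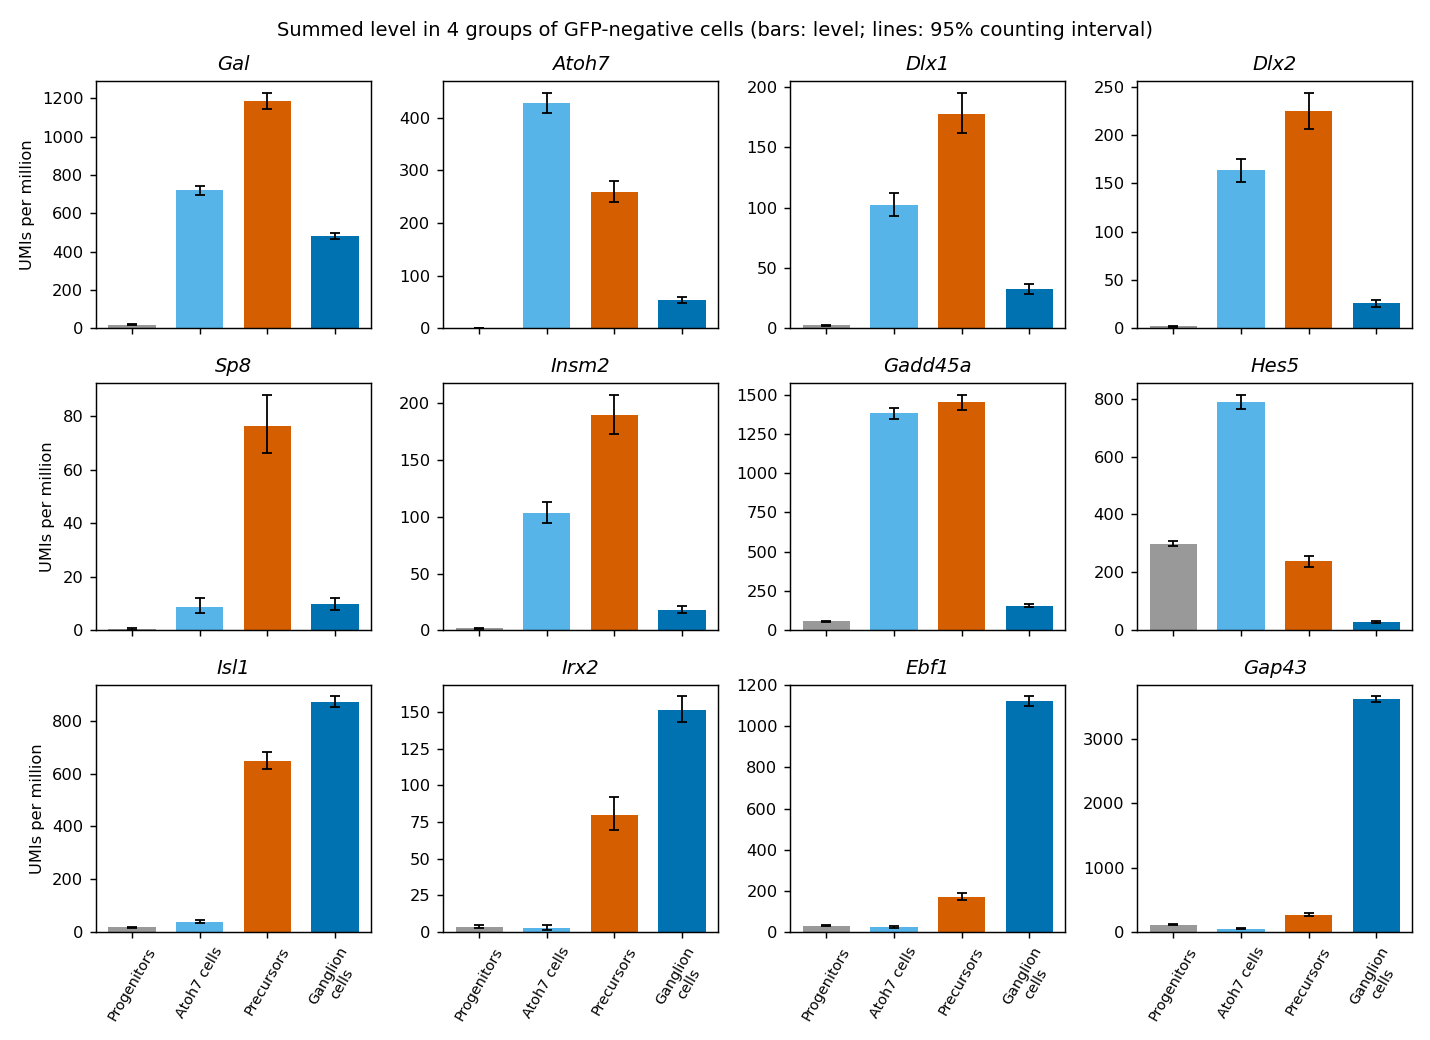
Summed level (vertical axes, UMIs per 1000000 UMIs, each from 0) of 12 genes in progenitors, Atoh7 cells, precursors and differentiated ganglion cells, with 95% counting intervals as lines. Gal, Dlx1, Dlx2, Sp8 and Insm2 are highest in the precursors, Atoh7 and Hes5 in the Atoh7 cells, and Isl1, Irx2, Ebf1 and Gap43 in the ganglion cells, while Gadd45a is similar in Atoh7 cells (1381) and precursors (1452).

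Across all genes with a mean of at least 10 CPM over both groups, 107 of 7785 were at least 2-fold higher in the precursors than in the other cells (1.37%) and 340 were at least 2-fold lower (4.37%), with a median log2 ratio of 0.00. A gene near 0 in 1 group could pass this filter through the other group alone. For such genes the filter set the direction, in the list counts as well. Without the 32 cells of the progenitor profile these counts were 161 and 555. The 15 highest genes above 50 CPM were *Sp8*, *Insm2*, *Dlx2*, *Dlx1*, *Rab15*, *Dqx1*, *Mfng*, *Gal*, *Mfap4*, *Rgs16*, *Btbd17*, *Igsf21*, *Gadd45a*, *Gad2* and *Hey1*. *Insm2*, a zinc finger factor of neuroendocrine cells, was at 190 CPM in precursors and 19.2 CPM in the other cells, 9.90-fold higher (8.84 to 11.1). *Rab15*, a small GTPase of vesicle recycling, was 5.49-fold higher (118 against 21.6 CPM) and was found in 60.6% of precursors. *Gad2*, an enzyme that makes the transmitter GABA, was 3.98-fold higher (3.37 to 4.67) and was found in 45.8% of precursors, while *Gad1*, which catalyses the same step, had 0 UMIs. *Dqx1* stood apart from the others because its 149 UMIs came from 4.82% of the precursors.

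**Figure D3:**
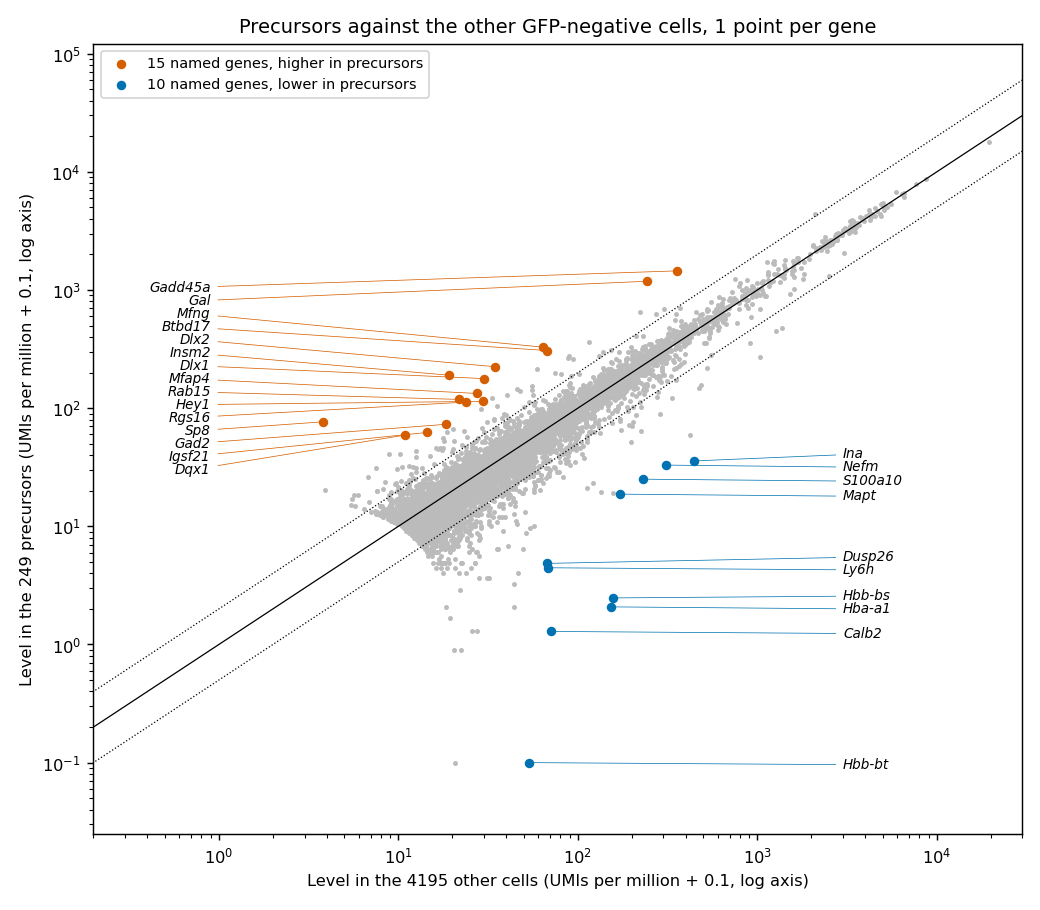
Level in the 249 precursors (vertical axis) against the level in the 4195 other GFP- cells (horizontal axis), both in UMIs per 1000000 UMIs plus 0.1 on log axes, 1 point per gene with a mean of at least 10 CPM. The solid line marks equal levels and the dotted lines 2-fold; the 15 highest named genes (orange) lie between 3.89-fold and 20.8-fold above equality, and the 10 lowest (blue) are led by Hbb-bt at 0 UMIs in precursors.

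The 10 lowest genes were of 2 kinds. *Hbb-bt*, *Hba-a1* and *Hbb-bs*, genes of red blood cells, were carried by few cells of the rest of the library (0.238% held *Hbb-bt*, at 53.5 CPM). The 8 red blood cell genes summed to 4.75 CPM in precursors and 372 CPM in the other cells. These differences did not hold under every alternative described below. The log2 ratios to the other cells were −8.08 for *Hbb-bt*, −5.93 for *Hbb-bs* and −6.13 for *Hba-a1*. They rose to as much as −0.13, −0.01 and 1.36, in the same order. The others were *Calb2*, *Ly6h*, *Dusp26*, *Ina*, *Nefm*, *S100a10* and *Mapt*. These are genes of differentiated neurons, and each was also lower in the Atoh7 cells and in the progenitors than in all other cells summed. *Nefm* and *Ina*, partners of the *Nefl* protein in the neuronal cytoskeleton, were at 32.9 and 35.7 CPM in precursors, against 1058 and 1431 CPM in the differentiated ganglion cells, a contrast that the rule set in part through its limit on *Nefl*.

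Against the Atoh7 cells, which held *Atoh7* but no *Pou4f2* UMI, the precursors were higher in several ganglion cell factors and lower in several proneural and photoreceptor factors. Of 7644 genes, 190 were at least 2-fold higher in the precursors (2.49%) and 268 at least 2-fold lower (3.51%). Without the progenitor profile 461 genes were lower. *Isl1* was at 648 CPM (617 to 680) against 39.2 CPM in Atoh7 cells, 16.5-fold higher (14.2 to 19.4), a log2 ratio of 4.05 that was 3.10 with cells thinned to 3200 UMIs. A precursor held 0 to 24 *Isl1* UMIs with a median of 5, and 197 of 249 held at least 1. Of the 52 precursors without *Isl1*, 31 had the progenitor profile, and without that profile 196 of 217 precursors held *Isl1*. *Irx2*, an Iroquois homeodomain factor, had the highest ratio to Atoh7 cells (80.0 against 3.01 CPM, 26.6-fold, 15.5 to 49.5). *Lmo1*, a LIM-only cofactor, was 13.3-fold higher (129 against 9.68 CPM, a log2 ratio of 3.72 that was 2.87 after thinning), and *Elavl4*, an RNA-binding protein of neurons, 10.3-fold higher (346 against 33.6 CPM). *Igfbpl1*, *Sp8*, *Ebf1*, *Smpd3*, *Barhl2* and *Gad2* completed the 10 highest.

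Several ganglion cell transcription factors lay above the Atoh7 cells and below the differentiated ganglion cells. Of 27 listed, 13 had enough UMIs for the comparison with Atoh7 cells, and 7 were at least 2-fold higher and 0 lower, with a median log2 ratio of 1.70 (all genes: 2.49% higher, 3.51% lower, median −0.01). Of 19 in the comparison with differentiated ganglion cells, 12 were at least 2-fold lower and 1 higher, with a median of −1.53 (all genes: 10.0% lower, 7.09% higher, median 0.07). Members near 0 in precursors, such as *Irx5*, entered that comparison only through the differentiated ganglion cells. For such members the direction followed from how they entered, so the count and median are descriptions only. Members of the same family differed. *Irx2* was at 80.0 CPM, or 1.89-fold below the 152 CPM of the differentiated ganglion cells, whereas *Irx5* was at 1.19 CPM and *Irx3* at 4.75 CPM, 74.4-fold (25.3 to 362) and 15.3-fold (8.66 to 29.7) below them. Likewise *Pou4f1*, a relative of *Pou4f2*, was at 8.72 CPM against 160 CPM in differentiated ganglion cells, and *Pou4f3* had 0 UMIs. *Isl1* at 1.34-fold and *Sox4* and *Sox11*, factors of early neurons, at 1.22-fold and 1.24-fold below the differentiated ganglion cells differed little from them. *Ebf1* was 6.55-fold lower (171 against 1121 CPM).

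Photoreceptor genes were lower than in the Atoh7 cells or differed by less than 2-fold, while amacrine and horizontal genes moved both ways. The 10 genes lowest against the Atoh7 cells were *Crx*, *Fabp7*, *Penk*, *Pcdh17*, *Ptf1a*, *Otx2*, *Neurod1*, *Neurog2*, *Pkib* and *Neurod4*. *Otx2* and *Crx*, factors of photoreceptors, were at 28.5 CPM (222 in Atoh7 cells) and 2.38 CPM (73.8), which is 7.77-fold and 31.0-fold lower. *Ptf1a*, the factor of amacrine and horizontal cells, was at 10.3 CPM and 8.35-fold lower (5.62 to 12.9). *Onecut1*, shared by ganglion, horizontal and cone precursors, was 7.68-fold lower (5.15 against 39.6 CPM), whereas its relative *Onecut2* was 1.84-fold higher (122 against 66.5 CPM). Of 18 photoreceptor genes 8 had 0 UMIs in precursors, among them *Lhx4*, the gene of the reporter, and *Gnat2*, *Nr2e3* and *Opn1sw*, and the most abundant was *Casz1* at 34.5 CPM. The list summed to 97.5 CPM in precursors, 211 in the other cells and 464 in the Atoh7 cells, and of 6 members compared with the Atoh7 cells 3 were at least 2-fold lower and 0 higher (all genes: 3.51% and 2.49%). Members such as *Crx* entered this comparison only through the Atoh7 cells, which fixed their direction, whereas the sums do not depend on the filter. Of the 18 amacrine and horizontal genes, *Barhl2*, which is also used in ganglion cells, was at 67.8 CPM and 2.32-fold above the other cells, while *Tfap2c*, *Lhx1* and *Gad1* had 0 UMIs and *Tfap2b* was excluded by the rule. Of 10 of these genes compared with the Atoh7 cells, 4 were at least 2-fold lower (3.51% of all genes) and 2 at least 2-fold higher (2.49%). The 2 that were higher were *Gad2* (72.9 against 13.3 CPM) and *Barhl2* (67.8 against 11.2 CPM). That list summed to 1806 CPM in precursors, 1931 CPM in the Atoh7 cells and 1692 CPM in the other cells, of which *Pax6*, a gene of most retinal cells, gave 970 CPM in precursors.

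Proneural and Notch genes were mostly below the Atoh7 cells and above the differentiated ganglion cells. Of 29 listed, 23 had enough UMIs for the comparison with Atoh7 cells; 13 were at least 2-fold lower, 0 were higher, and the median log2 ratio was −1.20 (all genes: 3.51% lower, 2.49% higher, median −0.01). Against differentiated ganglion cells 19 of 22 were at least 2-fold higher, with a median of 2.01 (all genes: 7.09% higher, median 0.07). *Neurog2*, a proneural factor, was at 70.9 CPM, 6.31-fold (5.42 to 7.39) below Atoh7 cells. Its log2 ratio, −2.65, ranged from −3.65 to −2.49 over the alternatives described below. The Notch target *Hes5* was at 238 CPM, 3.31-fold below the 788 CPM of Atoh7 cells and 8.68-fold (7.42 to 10.2) above the differentiated ganglion cells. *Hey1*, another gene of the Notch response, did not share this order and was highest in the precursors, at 114 CPM against 62.8 in Atoh7 cells and 23.9 in differentiated ganglion cells. *Mfng*, a glycosyltransferase that modifies Notch receptors, was also highest there, at 328 CPM against 170 and 112. *Gadd45a*, a growth arrest and DNA damage gene, was at 1452 CPM in precursors and 1381 CPM in Atoh7 cells, a 1.05-fold difference that turned direction after thinning, and at 157 CPM in differentiated ganglion cells.

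Genes of the axon and of later function lay mostly below the differentiated ganglion cells, and many of them above the Atoh7 cells. Of 7648 genes compared with the differentiated ganglion cells, 542 were at least 2-fold higher in the precursors (7.09%) and 765 at least 2-fold lower (10.0%). The 34 axon growth and guidance genes summed to 13392 CPM in precursors, 13449 CPM in the other cells, 6452 CPM in Atoh7 cells and 36177 CPM in differentiated ganglion cells. Of 22 compared with Atoh7 cells 11 were at least 2-fold higher and 0 lower (all genes: 2.49% and 3.51%). Of 29 compared with differentiated ganglion cells 21 were at least 2-fold lower and 1 was higher. The 1 that was higher was *Dcc*, a netrin receptor of growth cones (40.8 against 16.4 CPM, 2.49-fold, 1.90 to 3.25). Its log2 ratio, 1.32, fell to 0.76 at the lowest of the alternatives described below, which is under 2-fold. *Tubb3*, the neuronal tubulin, was within 1.51-fold of the differentiated ganglion cells (4358 against 6596 CPM), while *Gap43*, a growth cone protein, was 13.4-fold lower (271 against 3619 CPM). Of the 26 late ganglion cell genes, 3 were those limited by the rule and 5 had 0 UMIs in precursors. Of 12 compared with the Atoh7 cells 8 were at least 2-fold higher and 1 lower (all genes: 2.49% and 3.51%), and of 19 compared with the differentiated ganglion cells 17 were at least 2-fold lower and 0 higher (all genes: 10.0% and 7.09%). Members near 0 in precursors entered the latter comparison only through the differentiated ganglion cells, so their direction was fixed by how they entered. The most abundant was *Elavl3*, an RNA-binding protein of neurons, at 623 CPM against 179 CPM in Atoh7 cells and 735 CPM in differentiated ganglion cells. *Slc17a6*, the glutamate transporter of ganglion cells, had 0 UMIs where 28.2% of differentiated ganglion cells held it, and *Scn9a*, a sodium channel, had 2 UMIs and was 97.8-fold lower (27.0 to 809).

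The 10 genes highest against the differentiated ganglion cells were *Dqx1*, *Insm2*, *Gadd45a*, *Tnfaip8*, *Ndufa4l2*, *Shisa2*, *Hes5*, *Dlx2*, *Rgs16* and *Mdk*. *Mdk*, the growth factor midkine, was at 1007 CPM against 125 CPM, 8.04-fold higher (7.47 to 8.66), and was found in 98.8% of precursors. *Rgs16*, a regulator of G protein signalling, was at 112 CPM against 13.5 CPM, 8.36-fold higher. *Mdk*, *Ndufa4l2*, *Tnfaip8* and *Hes5* were higher in progenitors (1214, 135, 86.5 and 300 CPM) than in precursors (1007, 65.8, 56.3 and 238 CPM). *Insm2*, *Dlx2* and *Rgs16* were not (1.75, 2.13 and 6.40 CPM in progenitors). The 10 lowest were *Ppp2r2b* (0 UMIs), *Calb2*, *Cda*, *Scn9a*, *Nrn1*, *Vstm2l*, *Irx5*, *Myt1l*, *Resp18* and *Mstn*, all of which had 5 or fewer UMIs in the precursors.

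Summed over all precursors, cell cycle transcripts lay between those of Atoh7 cells and differentiated ganglion cells. The 43 genes of S phase summed to 1696 CPM in precursors, 3116 in Atoh7 cells, 4068 in progenitors and 677 in differentiated ganglion cells. The 54 genes of G2 and M phase summed to 5000, 8845, 8953 and 2686 CPM in the same order. Within the precursors this sum was 9280 CPM at 1 *Pou4f2* UMI, 2943 CPM at 2 to 3 and 2684 CPM at 4 or more. The last value lay at the level of the differentiated ganglion cells. Without the progenitor profile the precursors were at 1278 CPM for S phase and 4240 CPM for G2 and M phase, and 48 of 217 cells held a UMI of *Top2a* or *Mki67*, genes of dividing cells, against 27 of the 32 cells with the profile. The 23 multipotent progenitor genes, which include *Hes1* and *Sfrp2*, summed to 4565 CPM in all precursors and 3326 CPM without the profile, against 12265 CPM in progenitors.

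The precursors were not uniform, and much of the spread went with the number of *Pou4f2* UMIs, although median depth was alike (9138, 9118 and 10223 UMIs per cell at 1, 2 to 3, and 4 or more). These counts are of the gene that chose the cells, so the order is a description. With the progenitor profile left out, these numbered 56, 68 and 93 cells. S phase genes summed to 2032, 1022 and 1048 CPM, and genes of G2 and M phase to 8861, 2929 and 2672 CPM. At 1 UMI the G2 and M phase sum was near that of Atoh7 cells (8845 CPM) and progenitors (8953 CPM). That value also went against the name of ganglion cell precursor. The S phase sum at 1 UMI lay below both (3116 and 4068 CPM). *Isl1* was at 285, 872 and 925 CPM, against 39.2 CPM in Atoh7 cells, and *Tubb3* at 2502, 5184 and 6325 CPM. *Gal* ran the other way, at 2696, 1390 and 703 CPM, as did *Hes5* at 527, 218 and 87.2 CPM. *Atoh7* and *Dlx2* were both at 366 CPM in cells with 1 UMI, 376 and 315 CPM with 2 to 3, and 227 and 173 CPM with 4 or more. *Sp8* had no such slope, at 77.0, 100 and 89.2 CPM. Cells with a single *Pou4f2* UMI thus had the highest summed levels of *Gal* and of cell cycle transcripts, even without the progenitor profile. The share of cells with *Gal* was alike at 1 UMI and at 2 to 3 without the profile (71.4% and 69.1%), and 44.1% at 4 or more. In all precursors it was 47.7%, 68.1% and 43.6%.

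**Figure D4:**
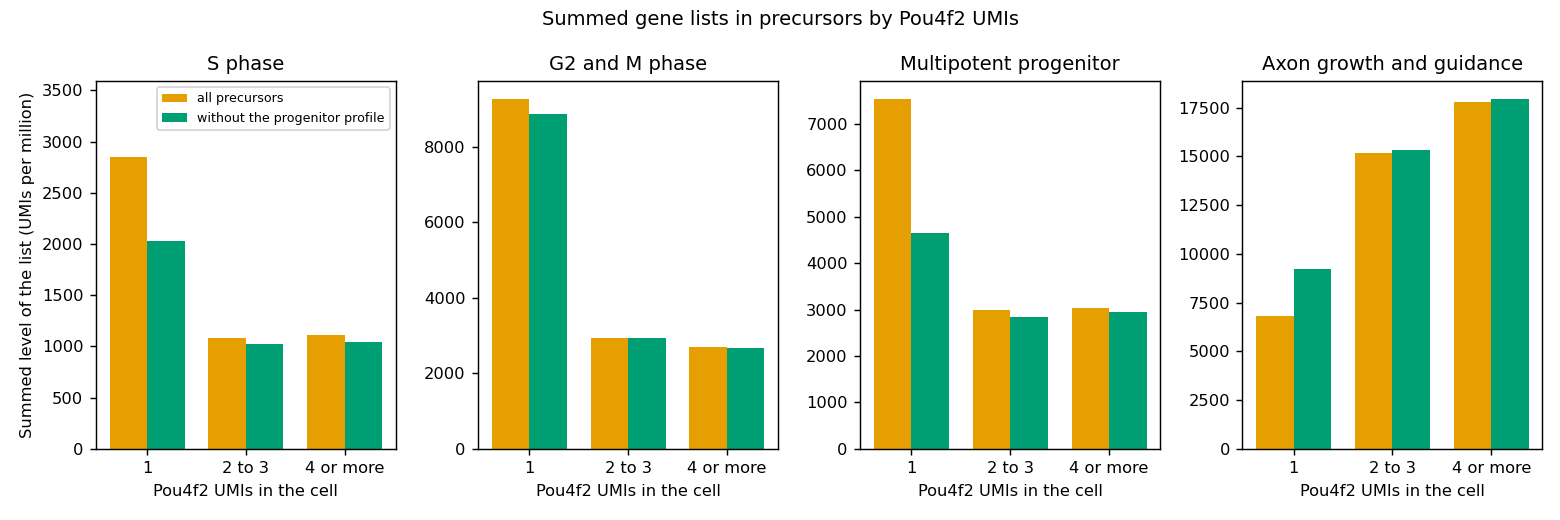
Summed level (vertical axes, UMIs per 1000000 UMIs, each from 0) of 4 gene lists in precursors with 1, 2 to 3, and 4 or more Pou4f2 UMIs, for all precursors (orange) and without the cells of the progenitor profile (green). In both, the S phase, G2 and M phase and progenitor lists are highest at 1 UMI and the axon list is lowest there (6832 CPM in all precursors and 9246 CPM without the profile).

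The nearest cells of a precursor also differed with its *Pou4f2* UMIs. When each GFP- cell was placed by the other genes, with the 6 rule genes left out, 50.3% of the 20 nearest cells of a precursor were precursors on average, against 5.60% of the library. For cells with 1 *Pou4f2* UMI the share was 24.8%, and progenitors made up 37.6% of their neighbours (42.9% of the library). Each cell was counted in 1 group here, so progenitors that were also precursors or differentiated ganglion cells were counted under those names. For cells with 2 to 3 UMIs precursors made up 64.6%, and with 4 or more UMIs 63.1%, with differentiated ganglion cells at 10.6% and 20.9%. Progenitors were the most common neighbour of all 32 cells with the progenitor profile.

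The markers were also compared within single cells. Of the 4 markers *Gal*, *Atoh7*, *Isl1* and *Dlx1* or *Dlx2*, all were found in 98 precursors (39.4%) and none in 34 (13.7%), 29 of which had the progenitor profile. After thinning to 3200 UMIs, which left 247 precursors, *Dlx1* or *Dlx2* was found in 76.2% (66.7 to 84.1%) of cells with *Gal* and 41.8% (33.7 to 50.2%) of cells without it. *Atoh7* was found in 65.3% and 34.9% of the same cells and *Sp8* in 30.7% and 15.1%. *Isl1* was found in 70.3% (60.4 to 79.0%) and 62.3% (53.9 to 70.2%), intervals that overlap. The cells without *Gal* included 31 of the 32 cells with the progenitor profile. Without that profile, *Isl1* turned direction, at 71.0% of the 100 cells with *Gal* and 79.1% of the 115 without, with overlapping intervals (61.1 to 79.6% and 70.6 to 86.2%). The other differences became smaller, with *Dlx1* or *Dlx2* at 77.0% (67.5 to 84.8%) and 51.3% (41.8 to 60.7%), *Atoh7* at 66.0% (55.9 to 75.2%) and 44.3% (35.1 to 53.9%), and *Sp8* at 31.0% (22.1 to 41.0%) and 19.1% (12.4 to 27.5%). The intervals of *Sp8* overlapped with and without the profile. At this depth, pairs of these markers that did not include *Gal* had overlapping intervals without the profile: *Dlx1* or *Dlx2* was found in 65.8% of cells with *Atoh7* and 60.2% of cells without it, and *Isl1* in 71.8% and 79.6% of the same cells. With all UMIs and without the profile, some of these pairs did not overlap: *Isl1* was found in 93.1% (88.5 to 96.3%) of cells with *Dlx1* or *Dlx2* and 71.4% (51.3 to 86.8%) of cells without, and *Sp8* in 50.3% (42.9 to 57.6%) and 21.4% (8.30 to 41.0%).

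Around the limit of 1 UMI of *Sncg*, *Nefl* and *Rbpms* some genes differed and others did not. The cells just inside it, with 1 such UMI (81 cells), and just outside, with 2 (26 cells), had overlapping intervals for *Gal* (1102 and 1169 CPM, the latter from 8 of the 26 cells), *Atoh7* (277 and 223 CPM) and *Pou4f2* (346 and 334 CPM). Of 41 genes followed, the intervals of 9 did not overlap. *Insm2* (210 and 42.6 CPM), *Dlx2* (231 and 111 CPM), *Gadd45a* (1519 and 920 CPM), *Hes5* and *Btbd17* were lower just outside, and *Isl1* (668 and 888 CPM), *Gap43* (332 and 485 CPM), *Ccnd1* and *Top2a* were higher. *Sp8* was at 59.4 CPM (40.1 to 84.9) in the cells with 3 to 9 such UMIs, of which 40.5% held it, and this interval overlaps that of the precursors. Further out *Sp8*, *Gadd45a* and *Atoh7* were at 2.64, 73.5 and 18.1 CPM in the 342 cells with 50 or more such UMIs, and *Dlx2* was found in 18.7% (14.7 to 23.3%) of these cells. *Isl1* and *Igfbpl1* were highest in the middle: *Isl1* was at 1276 CPM with 3 to 9 UMIs (42 cells) and 702 CPM with 50 or more, and *Igfbpl1* at 2125 CPM with 10 to 49 (140 cells) and 1074 CPM with 50 or more. *Gap43* and *Ebf1* had their highest levels at the end, 4518 and 1267 CPM.

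*Gal* did not follow any of these orders. It was at 1225 CPM with 0 such UMIs and 1169 CPM with 2, then at 246 CPM with 3 to 9 and 139 CPM with 10 to 49, and again at 581 CPM with 50 or more. The levels of the small bins lean on single cells. Among the 26 cells with 2 such UMIs a single cell held 151 *Gal* UMIs, and among the 42 with 3 to 9 a single cell held 64. The number of *Gal* UMIs in a cell differed as well. Of the precursors 25.7% (20.4 to 31.6%) held 10 or more *Gal* UMIs, of the cells with 10 to 49 late UMIs 2.14% (0.444 to 6.14%), and of the cells with 50 or more late UMIs 34.8% (29.8 to 40.1%). In the last group 83.9% of cells held *Gal*, with a median of 6 UMIs and a highest value of 49, while the precursors had a median of 1 and a highest value of 187. Depth was greater at the end of the series (median 9788 UMIs at 0 and 14765 at 50 or more). Thinned to 3200 UMIs per cell, *Gal* was found in 43.7% (36.1 to 51.6%) of cells at 0, 11.9% (3.98 to 25.6%) at 3 to 9, 20% (13.7 to 27.6%) at 10 to 49 and 61.7% (56.3 to 66.9%) at 50 or more. At equal depth the share was thus lower from 3 to 49 late UMIs than at either end, and the intervals at 3 to 9 and 10 to 49 overlap. The shares with 10 or more *Gal* UMIs were not thinned.

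**Figure D5:**
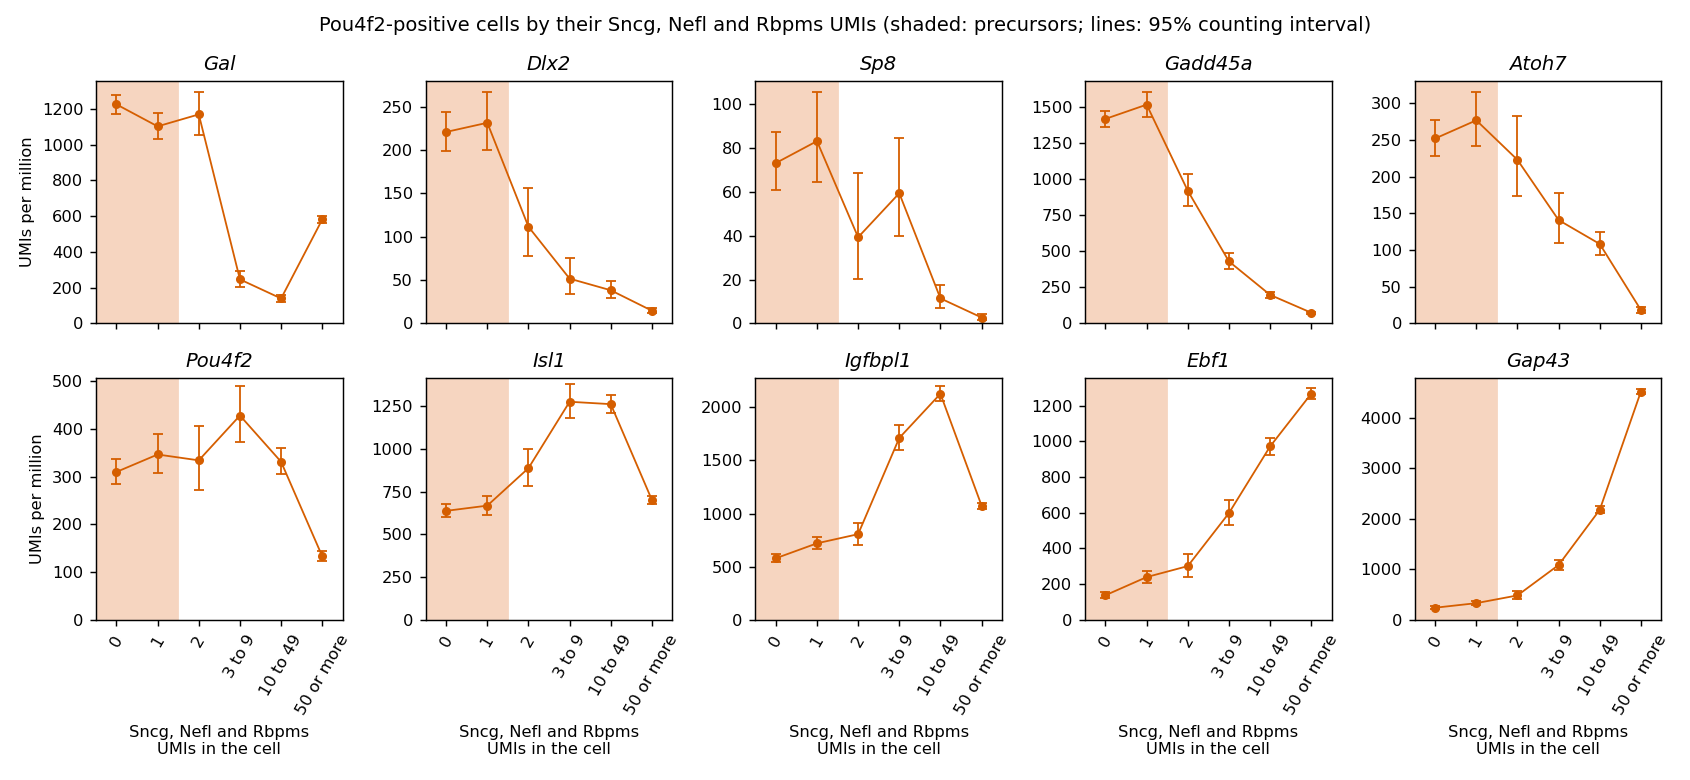
Summed level (vertical axes, UMIs per 1000000 UMIs, each from 0) of 10 genes in Pou4f2-positive GFP- cells with no Tfap2b or Olig2 UMI. Cells are binned by their number of Sncg, Nefl and Rbpms UMIs (horizontal axes, 0 to 50 or more), with 95% counting intervals. The shaded bins are the precursors. Gal has its lowest summed level at 10 to 49 UMIs (139), although in the bin of 3 to 9 UMIs a single cell held 64 Gal UMIs. Isl1 and Igfbpl1 are highest in the middle bins, and Ebf1 and Gap43 are highest at 50 or more.

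Genes of microglia, pigment epithelium and lens were nearly absent from the precursors, whereas 32 of the 249 cells met the progenitor definition. Of 6 microglia genes 4 had 0 UMIs and the list summed to 0.792 CPM, and of 11 genes of pigment epithelium and lens 10 had 0 UMIs. The 8 genes of endothelium and pericytes summed to 23.4 CPM, of which *Kdr*, which retinal progenitors also express, gave 19.8 CPM, with *Cdh5* and *Rgs5* at 0. Stress and cell death genes were near the rest of the library: 16 genes of the ATF4 response summed to 379 CPM against 423 CPM, 12 immediate early and heat shock genes to 2289 against 2198 CPM, and 12 apoptosis genes to 587 against 518 CPM. Dorsal and ventral retina genes summed to 96.3 and 255 CPM in precursors and 207 and 358 CPM in the other cells. Of 6 dorsal and 4 ventral genes compared, 0 were at least 2-fold higher than in the other cells, and 3 dorsal genes were at least 2-fold lower (all genes: 1.37% higher, 4.37% lower).

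*Gal* made up most of the listed neuropeptide and signal transcripts. The 26 neuropeptide and signal genes summed to 1347 CPM in precursors, of which *Gal* gave 1185. *Shh*, which ganglion cells secrete later, had 0 UMIs, and *Sst*, the neuropeptide somatostatin, was at 9.11 CPM against 137 CPM in differentiated ganglion cells. None of the 3 Cip/Kip inhibitors of the cell cycle was at least 2-fold higher than in the other cells: *Cdkn1a* was at 2.38 CPM and 4.35-fold (1.98 to 11.9) below the other cells, *Cdkn1b* at 23.8 against 24.4 CPM, and *Cdkn1c* at 159 against 244 CPM. Of 12 genes of cell cycle exit compared, 0 were at least 2-fold higher than in the other cells and 2 were at least 2-fold lower, where 1.37% of all genes were higher and 4.37% lower.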

How the data were processed

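For each gate the authors deposited raw UMI counts of every gene in every barcode that Cell Ranger 2.1.1 kept (mm10, per the submitters' processing notes). The study's text limits cells to 3500 genes, which would have left out 30 of the precursors, so this limit was an alternative only. The members, gene lists and comparisons were chosen with earlier results of these data known. The 22 lists hold 411 genes, all of which were found. Genes named are the markers, list members, the 15 highest and 10 lowest by ratio against the other cells and the 10 highest and lowest against each further group, with at least 50 CPM in the higher group. Called means 2-fold or more, with 0.5 added to both sums. Genes at 0 UMIs were bounded by 3 counts per group.

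Scrublet (scanpy 1.11.5, expected rate 0.03) called doublets, which were left in. Neighbours came from 30 principal components of 2000 variable genes, on counts scaled to 10000 per cell. Python 3.11.15, numpy 2.4.6, scipy 1.17.1, pandas 2.3.3 and edgeR 4.0.16 (R 4.3.3) for TMM factors were used, and the intervals and ratios were tested on simulated data. Alternatives changed each clause of the rule, the scaling, the filter, the fold and the depth. Those without the progenitor profile or shared barcodes, also for markers in the same cells, were chosen after seeing the data. Progenitors were redefined with *Hes1* after seeing the data, and some genes planned for this definition and for the lists are not reported here. Gene positions follow GENCODE and promoters RefSeq, both on GRCm38.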

Additional observations from a re-analysis of the deposited data

Results flagged for a closer look

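In the GFP+ library, which the comparisons did not use, 7 of 3728 cells met the rule (0.188%, 0.0755 to 0.386%), with a median of 3664 UMIs. They held 9 *Pou4f2* UMIs, 0 of *Isl1*, *Gal* and *Sp8*, and 1 each of *Atoh7*, *Dlx1* and *Dlx2*. All 7 held *Gngt2* and *Otx2*, genes of photoreceptors, and 6 held *Thrb*. They were singled out because a signal of *Pou4f2* appeared in a library sorted for another cell type. The part of free RNA in these cells was not tested.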

How the results depend on the processing

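The 3 pairs of counts below are genes at least 2-fold higher and lower against the other cells (107 and 340), the Atoh7 cells (190 and 268) and the differentiated ganglion cells (542 and 765). They stayed within 1.5 times under other mitochondrial limits, without doublet calls, shared barcodes, or the limits on *Tfap2b* or *Olig2*, with no or up to 2 late UMIs, with TMM factors and with means of per-cell CPM. Requiring 2 *Pou4f2* UMIs left 163 precursors and gave 209 and 647, 369 and 598, and 348 genes higher than in the differentiated ganglion cells. Without the progenitor profile 161 genes were higher and 555 lower than in the other cells, and 461 were lower than in Atoh7 cells. At most 3500 genes per cell gave 175 genes higher than in the other cells, and thinning gave 247 and 589 against the other cells and 401 and 524 against Atoh7 cells. With no filter on CPM the pairs were 3727 and 1881, 1534 and 1611, and 2797 and 2283, and with a mean of at least 50 CPM 43 and 62, 51 and 65, and 121 and 246. A fold of 1.5 gave 355 and 840, 607 and 772, and 1398 and 1352, and a fold of 4 gave 17 and 52, 31 and 28, and 150 and 282. Of the 236 gene ratios followed, 160 were past 2-fold, and between 147 and 160 of these stayed past it in the same direction under each of 14 alternatives. Of the ratios past 2-fold, 106 moved over 1.5 times under at least 1 alternative and 4 changed sign. These were *Hba-a1* against the other cells at 1.36 with at most 3500 genes per cell, and, against Atoh7 cells after thinning, *Hbb-bt* at 1.30, *Calb2* at 0.23 and *Scn9a* at 0.81, all with few UMIs in precursors. Of the 76 ratios under 2-fold, 25 changed sign, abundant genes among them, such as *Ebf1* against the other cells (−0.88, and 0.44 with at most 3500 genes per cell) and *Gadd45a* against Atoh7 cells (0.07, and −0.25 after thinning). Against the differentiated ganglion cells the ranges were 1.41 to 2.49 for *Atoh7*, 2.29 to 3.33 for *Dlx2*, 2.02 to 3.25 for *Sp8*, 2.32 to 3.57 for *Gadd45a*, 2.26 to 3.95 for *Hes5*, 2.08 to 3.37 for *Rgs16* and −3.88 to −2.84 for *Gap43*. Against Atoh7 cells they were 3.10 to 4.51 for *Isl1* and −4.50 to −2.16 for *Ptf1a*. The cause of these moves was not tested. *Sp8* kept a log2 ratio of 3.84 to 4.68 against the other cells, *Dlx2* 2.40 to 2.92 and *Gal* 1.83 to 2.61. No paired analysis was possible because each gate has 1 library, and genes at a few UMIs are limited by depth.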

Other observations

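Precursors with *Sp8* differed from those without it beyond the gene itself. The 101 cells with an *Sp8* UMI had *Gal* at 1870 CPM and *Insm2* at 284 CPM, against 713 and 124 CPM in the 148 cells without, at median depths of 9448 and 9845 UMIs. *Ccnd1* was at 173 and 693 CPM. The cells without *Sp8* included all 32 cells of the progenitor profile. The other 116 cells without *Sp8* had *Gal* at 945 CPM, *Insm2* at 164 CPM and *Ccnd1* at 241 CPM. Most of the *Ccnd1* difference thus lay in the profile, while the summed levels of *Gal* and *Insm2* still differed. Without the profile, *Gal* was found in 69.3% (59.3 to 78.1%) of cells with *Sp8* and 50% (40.6 to 59.4%) of cells without. These intervals overlap, as they did after thinning. *Isl1* was at 763 CPM in cells with *Sp8*, 568 CPM in all cells without and 748 CPM without the profile. *Tubb3* was at 4730, 4101 and 5372 CPM in the same order and so turned direction.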
